A study of Mus musculus with 15 samples.

Results

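Messages of the nuclear-encoded subunits of the respiratory chain and the ATP synthase were followed in mouse embryonic stem cells after knockdown of 4 RNA helicases of the DEAD-box family. The genes were chosen by symbol, as those named Ndufa, Ndufb, Ndufc, Ndufs or Ndufv with a number, Sdha to Sdhd, Uqcr, Cox4 to Cox8 or Atp5, without Cox7a2l. They also had to average at least 20 expected counts (estimated reads per gene) over the 15 libraries. Of 83 symbols that matched, 78 reached this minimum, out of 23845 genes in the tables. All 78 were among the 14335 genes that had enough counts to be tested. They comprised 35 genes of complex I, 4 of complex II, 8 of complex III, 14 of complex IV and 15 of complex V, the ATP synthase. Ndufa4 and Ndufa4l2 were placed with complex IV, of which Ndufa4 is a subunit. The remaining 2 genes, Atp5s and Atp5sl, code for no subunit of the synthase core and were kept apart.

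The cells were of the line E14, grown on gelatin, and each culture received small interfering RNA against Ddx10 (Ddx10KD), Ddx24 (Ddx24KD), Ddx27 (Ddx27KD), Ddx54 (Ddx54KD) or, as the control, EGFP (EGFPKD). There were 3 biological replicates in each of these 5 groups, each treated with 400 ng of RNA and lipid reagent for 16 h and harvested at 48 h. The knockdowns were transient and partial: the targeted message stood at 18.5% ± 4.25 of its EGFPKD level in Ddx10KD (SD, n = 3), 30.8% ± 4.89 in Ddx24KD, 22.7% ± 0.818 in Ddx27KD and 28.0% ± 4.68 in Ddx54KD. The sequences of the interfering RNAs and the number used per target were stated nowhere in the material used here.

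Complexes I to IV pass electrons from NADH and succinate to oxygen, and complexes I, III and IV pump protons whose return drives the ATP synthase. Most subunits are encoded in the nucleus and imported, and a few central subunits of complexes I, III, IV and V are encoded in mitochondrial DNA, whose messages were not analysed here. Complex II is wholly nuclear-encoded. Several subunits have tissue-specific paralogues, for example in heart, muscle, lung or testis. The helicases themselves are known chiefly for work on ribosome assembly in the nucleolus.

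Libraries held 26836946 to 27708782 expected counts, of which 0.966% to 1.07% came from the 78 genes. The summed level of 12 embryonic stem cell markers, among them Pou5f1, Sox2 and Nanog, was 7992 to 8434 TPM (a level scaled for length and depth) in the knockdown libraries and 8219 to 8396 TPM in EGFPKD libraries. Of 8 fibroblast markers, the sum was 11.7 to 17.9 TPM in knockdown libraries and 18.7 to 26.6 TPM in EGFPKD libraries, mostly from Thy1, while Postn was at 0 and Col3a1, Lum and Dcn did not exceed 0.04 TPM in any library. Sums of 5 endoderm markers were 2.18 to 5.93 TPM in knockdown libraries and 1.94 to 2.84 TPM in EGFPKD libraries, and those of 4 trophoblast markers 4.77 to 10.5 TPM in knockdown libraries and 4.88 to 8.74 TPM in EGFPKD libraries. The part of these markers in the results was not tested. Within each group, replicate 2 had the highest summed level of the 78 genes. In bulk RNA a lower level per cell and fewer cells that carry a message cannot be told apart.

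A subunit message changed in about as large a share of the genes as elsewhere in the transcriptome, and among those that changed most fell. Genes at a Benjamini-Hochberg adjusted p under 0.05 over all tested genes are called, from the edgeR quasi-likelihood test. In Ddx10KD 4 of the 78 genes rose and 19 fell, where 16.5% of all tested genes rose and 14.5% fell. In Ddx24KD 4 rose and 18 fell, beside 15% and 13.1% of all genes. Ddx27KD had 5 that rose and 23 that fell, against a background of 17.3% and 16.1%. In Ddx54KD 6 rose and 12 fell, where 13.1% and 11.2% of all genes did. Single libraries moved these counts, and in the settings named next the share of all tested genes that were called was smaller as well. Of genes that rose, 2 were left in Ddx10KD without Ddx10KD replicate 2 or EGFPKD replicate 1, 2 in Ddx24KD without EGFPKD replicate 1 or 3, 2 in Ddx27KD without Ddx27KD replicate 2 or EGFPKD replicate 1, and 1, 3 and 2 in Ddx54KD without Ddx54KD replicate 2, Ddx54KD replicate 3 or EGFPKD replicate 1. Shares of all genes that rose were, setting by setting, 13% and 12.6%, 11.6% and 12%, 14.2% and 14.2%, and 10%, 8.85% and 9.26%. Of genes that fell, 11, 10 and 10 were left in Ddx24KD without Ddx24KD replicate 1, Ddx24KD replicate 3 or EGFPKD replicate 2, 14 and 13 in Ddx27KD without Ddx27KD replicate 1 or EGFPKD replicate 2, and 7 in Ddx54KD without Ddx54KD replicate 3. Shares of all genes that fell were, in the same order, 9.93%, 8.9% and 9.9%, 13.2% and 12.9%, and 6.57%. The median log2 change of the 78 genes was -0.07 in Ddx10KD, -0.06 in Ddx24KD, -0.09 in Ddx27KD and -0.05 in Ddx54KD, and that of all tested genes lay between 0.0031 and 0.0081.

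Replicate numbers pair these libraries, and with the number as a block more genes passed. Then 9 rose and 27 fell in Ddx10KD (22.8% and 21.3% of all genes), 8 and 27 in Ddx24KD (21.3% and 19.9%), 8 and 34 in Ddx27KD (23.3% and 22.6%), and 10 and 21 in Ddx54KD (20% and 18.8%). The 4 comparisons share the EGFPKD libraries, so their values stand side by side and are not independent of one another. A single test over the 5 groups called 21 of the 78 genes, where 29% of all genes were called, and 40 with the block (49.5% of all genes). It called 13 without EGFPKD replicate 2, for which no share of all genes is given here.

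**Figure D1:**
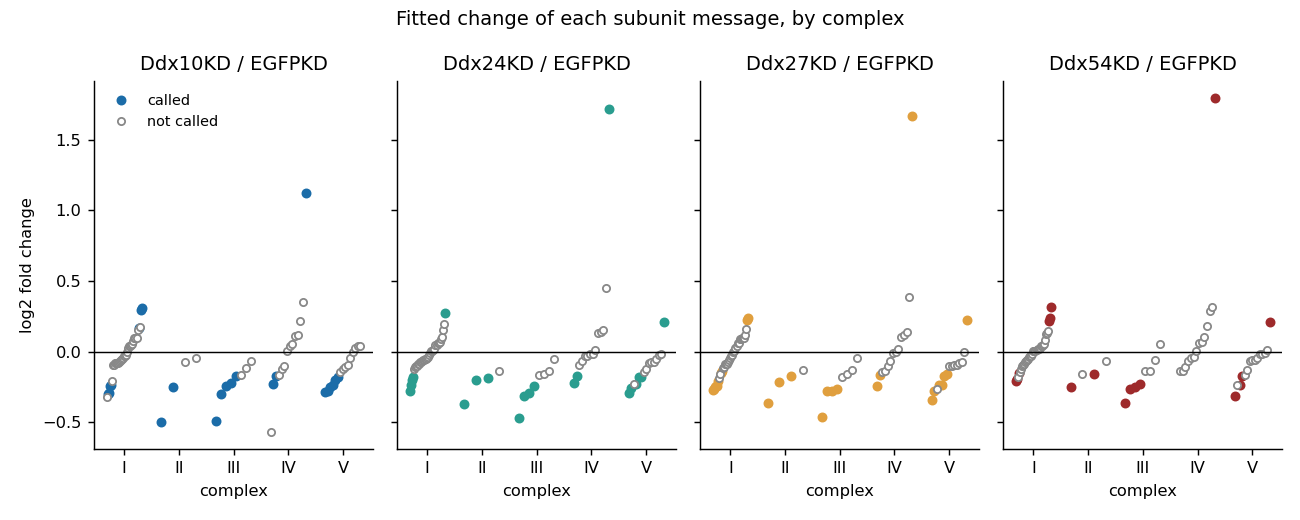
Fitted log2 fold change (vertical axis) of each of the 76 genes assigned to a complex, in 1 panel per knockdown over EGFPKD; filled points passed the edgeR test at an adjusted p under 0.05 and open points did not. Points within a complex are ordered by value. The single high point in complex IV is Cox6b2, at 1.12, 1.72, 1.67 and 1.80 in Ddx10KD, Ddx24KD, Ddx27KD and Ddx54KD, and no filled point of complex II or III lies above 0.

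Counted by complex, the genes that fell can be read against the 14.5%, 13.1%, 16.1% and 11.2% of all genes that fell in Ddx10KD, Ddx24KD, Ddx27KD and Ddx54KD. Complex II had 2, 3, 3 and 2 of 4 genes lower in Ddx10KD, Ddx24KD, Ddx27KD and Ddx54KD, and complex III had 5, 4, 4 and 4 of 8, with no gene of either called higher. Complex V had 6, 5, 6 and 3 of 15 genes lower. In complex I the counts were 4, 4, 8 and 3 of 35 lower (11.4%, 11.4%, 22.9% and 8.57%) and 3, 1, 2 and 3 higher, and in complex IV 2, 2, 2 and 0 of 14 lower (14.3% in each of the first 3) and 1 higher in each. The median log2 changes in the same order of knockdowns were -0.16, -0.19, -0.19 and -0.16 in complex II, -0.20, -0.20, -0.22 and -0.19 in complex III, and -0.12, -0.12, -0.10 and -0.06 in complex V. In complex I they were -0.03, -0.05, -0.04 and 0.01, and in complex IV 0.02, -0.02, -0.01 and 0.03. These counts and medians are descriptions, and no test was made of a complex as a whole or of a difference between complexes.

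Summed over a complex and set against the EGFPKD library of the same number, complex III reached 85.2% to 89.4% of control CPM (counts scaled for depth by TMM) in Ddx10KD, 82.5% to 87.0% in Ddx24KD, 81.6% to 88.1% in Ddx27KD and 83.6% to 91.5% in Ddx54KD. Complex II reached 87.3% to 89.9%, 86.3% to 87.9%, 84.4% to 89.2% and 87.3% to 94.7% in the same order of knockdowns. Complex V lay between 92.7% and 98.1% over the 12 knockdown libraries. The sums of complexes I and IV lay on both sides of the control over the same libraries, at 93.7% to 101.5% and 95.1% to 103.9%.

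**Figure D2:**
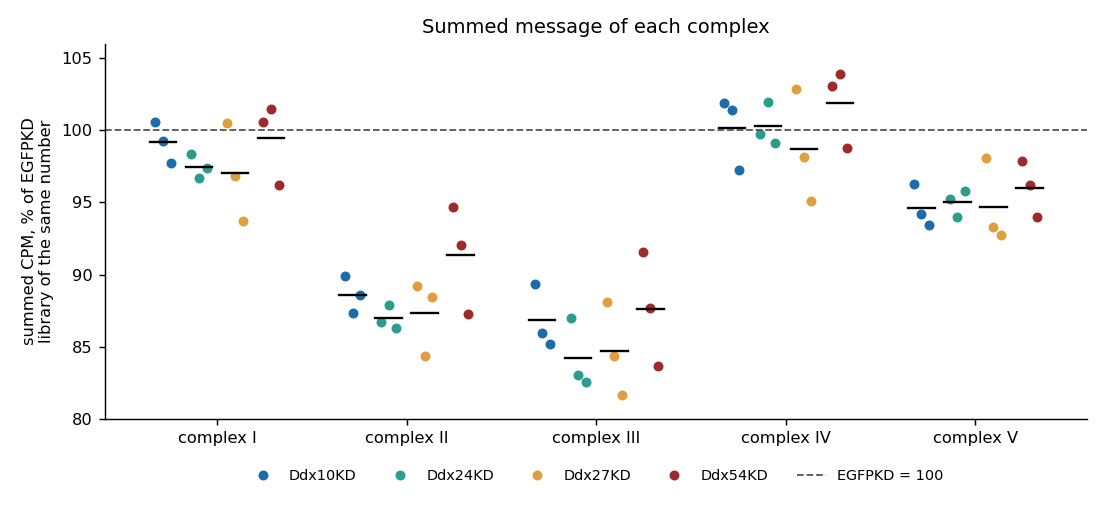
Summed TMM-scaled CPM of each complex in the knockdown libraries, as a percentage of the EGFPKD library with the same replicate number (vertical axis, which starts at 80%); points are libraries, black bars their means over 3, and the dashed line is the control. All points of complexes II, III and V lie below the line, between 81.6% and 98.1%.

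2 features that did not enter the choice of the 78 genes were examined, length and promoter sequence. Their messages are short, with a median length of 649 bases against 2807 bases over all tested genes. Among all 1049 tested genes under 1000 bases the median log2 change was -0.08 in Ddx10KD, -0.06 in Ddx24KD, -0.06 in Ddx27KD and -0.0099 in Ddx54KD, and for the 55 subunit genes in that class it was -0.07, -0.05, -0.09 and -0.03. Of all genes in that class 18.9%, 15.7%, 18.5% and 9.91% fell and 5.82%, 6.39%, 6.96% and 6.2% rose in the same order of knockdowns. Of its 55 subunit genes 13, 11, 14 and 5 fell and 3, 2, 2 and 3 rose. More falls than rises were thus seen among short genes at large as well. Between 1000 and 2000 bases 16.9%, 16.4%, 20% and 13.4% of all genes fell and 11.1%, 9.96%, 11.7% and 9.01% rose. Subunit genes of that class, 19 in number, had 6, 7, 8 and 7 that fell and 1, 2, 2 and 2 that rose. Genes over 2000 bases had medians of 0.03, 0.03, 0.03 and 0.02. For the 4 subunit genes among them the medians were -0.05, -0.10, -0.10 and -0.06. The 78 genes were also abundant, with a median level of 195 TPM against 14.1 TPM over all tested genes. With only genes at 10 CPM in 3 libraries tested, 18%, 16.8%, 19.6% and 14.6% of all genes fell. In that setting 18.9%, 17.6%, 19.8% and 15.8% rose, in the same order of knockdowns. Subunit genes tested there were 75, of which 19, 18, 19 and 12 fell and 5, 5, 6 and 6 rose. The part of length or level in the results was not tested.

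Promoter motifs were more frequent among these genes than among all genes, but most of the genes lacked any given motif. For 66 of the 78 genes RefSeq (GRCm38.p6) gave a promoter window, from 250 bases before to 50 bases after the start. Nuclear respiratory factor 1 (NRF1) is a known regulator of respiratory genes, and its motif (GCGCA, any base, then GCGC) was found on either strand in 17 of the 66, or 25.8%, against 5.19% of 27025 genes and 7.17% of protein-coding genes. The ETS motif CCGGAAG, read by GABPA among others, was in 24.2% against 9.93%, the YY1 motif AAGATGGC in 16.7% against 3.19%, and the site AAGGTCA of ESRRA in 12.1% against 5.38%. Of protein-coding genes 12.9% held the ETS motif, 3.57% the YY1 motif and 4.73% the ESRRA site. These 4 motifs are marked in capitals, on either strand, in the promoters printed further on, with the genes the results turn on. Each printed sequence runs 5′ to 3′ on the strand of its gene. No match in the printed windows overlaps another. A match is a run of letters, not a measured binding site.

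Complex I takes electrons from NADH. Its 35 genes include 7 that form the conserved catalytic core, and 28 supernumerary subunits that surround it. Of the 7 core genes 1, 1, 3 and 2 fell in Ddx10KD, Ddx24KD, Ddx27KD and Ddx54KD, and none was called higher. In Ddx10KD and Ddx24KD this 14.3% is near the share of all genes that fell. Ndufs7 carries the last iron-sulfur cluster before ubiquinone. It measured 42.6, 40.5 and 40.6 CPM in Ddx10KD, 46.1, 45.7 and 42.8 CPM in Ddx24KD, 42.2, 44.0 and 41.8 CPM in Ddx27KD and 42.2, 47.6 and 42.2 CPM in Ddx54KD, against 52.0, 51.0 and 49.8 CPM in EGFPKD. No knockdown library reached the lowest control. The log2 changes were -0.30 ± 0.06 (SE; edgeR adjusted p 8.94e-04), -0.18 ± 0.06 (0.026), -0.25 ± 0.06 (0.00289) and -0.21 ± 0.06 (0.0139). The Ddx24KD call was lost without Ddx24KD replicate 3, or EGFPKD replicate 1 or 2, and the Ddx54KD call without Ddx54KD replicate 1 or 3, or EGFPKD replicate 1 (adjusted p up to 0.114 and 0.0689).

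Among the supernumerary subunits, Ndufb10 of the membrane arm fell as well. Its level was 36.5, 41.0 and 36.9 CPM in Ddx10KD, 37.2, 42.8 and 38.7 CPM in Ddx24KD, 40.5, 39.4 and 38.3 CPM in Ddx27KD and 42.6, 41.1 and 38.5 CPM in Ddx54KD, against 46.2, 49.5 and 44.3 CPM in EGFPKD. All 12 knockdown values were under the lowest control value. The log2 changes were -0.29 ± 0.07 (edgeR adjusted p 0.00414), -0.24 ± 0.07 (0.0155), -0.24 ± 0.07 (0.0113) and -0.20 ± 0.07 (0.0468). The Ddx54KD call was near the threshold and was lost without Ddx54KD replicate 2 or 3 or EGFPKD replicate 1 or 2, and with upper-quartile scaling or no filter on low counts (adjusted p up to 0.177). In Ddx24KD it was lost without Ddx24KD replicate 1 or 3 or EGFPKD replicate 2, and in Ddx27KD without EGFPKD replicate 2 (adjusted p up to 0.0699 and 0.0569).

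Ndufa13, a supernumerary subunit also known as GRIM-19, went the other way. It stood at 44.5, 51.3 and 46.7 CPM in Ddx10KD, 46.0, 44.9 and 48.0 CPM in Ddx24KD, 49.6, 43.5 and 42.4 CPM in Ddx27KD and 41.8, 52.6 and 48.9 CPM in Ddx54KD, against 36.4, 40.7 and 38.0 CPM in EGFPKD. The lowest knockdown value lay just above the highest control value. It rose, with log2 changes of 0.31 ± 0.08 (edgeR adjusted p 0.0113), 0.27 ± 0.08 (0.0255), 0.24 ± 0.08 (0.0426) and 0.32 ± 0.08 (0.0127). Each call depended on single libraries, EGFPKD replicate 1 among them in all 4 comparisons. The others were Ddx10KD replicate 2, Ddx54KD replicate 2, Ddx24KD replicates 1 and 3, Ddx27KD replicates 1 and 2, and EGFPKD replicate 3 in Ddx24KD and Ddx27KD (adjusted p up to 0.20). Exons of Ndufa13 and of Tssk6 on the other strand share 375 bases in GENCODE M21, and whether the counting used strand is not given in the sources used here.

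Ndufb9, a membrane-arm subunit, had 80.3, 81.6 and 81.9 CPM in Ddx10KD, 72.8, 69.5 and 78.5 CPM in Ddx24KD, 73.9, 77.9 and 70.2 CPM in Ddx27KD and 70.1, 82.8 and 77.7 CPM in Ddx54KD, against 62.8, 68.5 and 67.5 CPM in EGFPKD. Every knockdown library was above the highest control. The subunit rose in Ddx10KD (log2 0.29 ± 0.07, edgeR adjusted p 0.00275) and in Ddx54KD (0.21 ± 0.07, 0.0244), the second only while Ddx54KD replicates 2 and 3 and EGFPKD replicate 1 were kept. In Ddx24KD and Ddx27KD its log2 changes were 0.15 ± 0.07 and 0.16 ± 0.07, with adjusted p of 0.0958 and 0.0711 (0.0325 and 0.0226 with the block). Ndufb9 shares 193 exon bases with Gm49356 on the same strand, so its reads can be split between them.

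Ndufa11 and Ndufb6, also of the membrane arm, were called in fewer comparisons. Ndufa11 averaged 93.8 ± 4.84 CPM in Ddx27KD and 94.5 ± 7.86 CPM in Ddx54KD against 80.2 ± 4.26 CPM in EGFPKD (SD, n = 3 each), a rise of 0.23 ± 0.07 and 0.24 ± 0.07 on the log2 scale (edgeR adjusted p 0.0222 and 0.0233). These calls were lost without EGFPKD replicate 1 and without replicate 2 of the same knockdown, and in Ddx54KD also without Ddx54KD replicate 3 or EGFPKD replicate 2 (adjusted p up to 0.123). In Ddx10KD and Ddx24KD Ndufa11 passed only with the block, at 0.00793 and 0.00142. Ndufa11 overlaps Vmac on the other strand by 70 exon bases. Ndufb6 rose in Ddx10KD by a log2 change of 0.17 ± 0.06, an edgeR adjusted p of 0.0475 that was lost without any 1 Ddx10KD library, without EGFPKD replicate 1 or 3, with DESeq2, with RLE scaling and with no filter on low counts (adjusted p up to 0.176). In Ddx54KD Ndufb6 passed with the block alone (0.138 without and 0.0487 with it), and 257 of its exon bases overlap Smim27 on the other strand. The other calls in complex I were falls, named here after their values were seen. Of core genes, Ndufs1, which carries iron-sulfur clusters of the matrix arm, fell in Ddx27KD (log2 -0.16 ± 0.05, edgeR adjusted p 0.0159). Ndufs1 shares 320 exon bases with Ino80dos on the other strand. Ndufv2, a core subunit of the NADH-binding module, fell in Ddx27KD and Ddx54KD (log2 -0.13 ± 0.04 and -0.15 ± 0.04, edgeR adjusted p 0.0229 and 0.0179). Ndufv3, a supernumerary subunit of the same module, fell in Ddx10KD and Ddx27KD (log2 -0.24 ± 0.08 and -0.27 ± 0.08, edgeR adjusted p 0.0271 and 0.0151). Ndufa5 of the matrix arm fell in Ddx27KD (log2 -0.21 ± 0.08, edgeR adjusted p 0.0466). Ndufb4 of the membrane arm fell in Ddx24KD and Ddx27KD (log2 -0.28 ± 0.08 and -0.27 ± 0.08, edgeR adjusted p 0.0148 and 0.0137). Ndufa8, which faces the intermembrane space, fell in Ddx10KD, Ddx24KD and Ddx27KD (log2 -0.24 ± 0.07, -0.20 ± 0.07 and -0.24 ± 0.07, edgeR adjusted p 0.0131, 0.036 and 0.0104). Apart from Ndufa8 in Ddx27KD, each of these calls was lost without some 1 library. In Ddx27KD this was replicate 1 for Ndufs1, Ndufv2, Ndufv3, Ndufa5 and Ndufb4, EGFPKD replicate 2 for all of these but Ndufb4, Ddx27KD replicate 2 and EGFPKD replicate 3 for Ndufv2 and Ndufa5, and Ddx27KD replicate 3 and EGFPKD replicate 1 for Ndufa5 (adjusted p up to 0.143). Ndufa5 was lost there also with upper-quartile scaling, with no filter on low counts and with a filter of 10 CPM in 3 libraries, Ndufv2 with no filter, and Ndufa8 in Ddx24KD with no filter. In Ddx54KD it was Ddx54KD replicate 3 or EGFPKD replicate 2 for Ndufv2 (up to 0.0672). In Ddx10KD it was Ddx10KD replicate 3 for Ndufa8 and Ndufv3, EGFPKD replicate 3 for Ndufa8, and Ddx10KD replicate 1 and EGFPKD replicates 1 and 2 for Ndufv3 (up to 0.131). In Ddx24KD it was Ddx24KD replicate 1 or 3 for Ndufb4 and Ndufa8 and any 1 EGFPKD library for Ndufa8 (up to 0.136). With the block these also passed: Ndufa8 in Ddx54KD (0.0356), Ndufb4 in Ddx10KD and Ddx54KD (0.00152 and 0.00649), Ndufs1 in Ddx24KD and Ddx54KD (0.00929 and 0.00877) and Ndufv2 in Ddx24KD (0.0199).

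The 28, 30, 25 and 29 complex I genes not called in Ddx10KD, Ddx24KD, Ddx27KD and Ddx54KD were spread on both sides of 0. The most abundant complex I message per length, Ndufa7 at 359 TPM, and the least abundant, Ndufs5 at 12.1 TPM, were not called in any comparison with EGFPKD, with log2 changes of 0.02 to 0.10 and -0.32 to 0.00.

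Complex II, succinate dehydrogenase, links the tricarboxylic acid cycle to the chain. Sdha is its flavoprotein and Sdhb its iron-sulfur subunit, and Sdhc and Sdhd anchor them in the membrane. Their levels per length were alike, from 124 TPM for Sdhd to 154 TPM for Sdhb. Sdhd fell in all 4 knockdowns, in Ddx10KD further than any other of the 78 genes that passed the test. It measured 65.9, 64.1 and 64.7 CPM in Ddx10KD, 70.4, 71.5 and 70.4 CPM in Ddx24KD, 73.0, 67.7 and 72.8 CPM in Ddx27KD and 80.6, 78.8 and 72.0 CPM in Ddx54KD, against 91.2, 91.3 and 92.5 CPM in EGFPKD. The 3 controls lay close together and all 12 knockdown values lay below them. The log2 changes were -0.50 ± 0.05 (edgeR adjusted p 3.10e-06), -0.37 ± 0.05 (5.26e-05), -0.37 ± 0.05 (4.09e-05) and -0.25 ± 0.05 (0.00188), and no alternative ended a call.

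The Sdhd promoter, chr9:50603800-50604099 (GRCm38.p6, reverse strand), is shown because this gene fell most in the complex. Its capitals mark an NRF1 motif 79 bases before the start, an ETS motif 46 bases before it and an ESRRA site from base 37 after it.
Sdhd: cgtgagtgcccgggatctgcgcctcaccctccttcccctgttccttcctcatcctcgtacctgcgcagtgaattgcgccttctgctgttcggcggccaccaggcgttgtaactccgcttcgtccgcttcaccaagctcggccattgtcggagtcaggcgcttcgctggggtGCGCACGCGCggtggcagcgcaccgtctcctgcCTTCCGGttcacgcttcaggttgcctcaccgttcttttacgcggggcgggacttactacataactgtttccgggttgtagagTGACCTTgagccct
On the other strand RefSeq places the start of Timm8b, an import chaperone of the intermembrane space, 52 bases from that of Sdhd, inside this window. Timm8b, named here after its values were seen, averaged 35.9 ± 2.32 CPM in Ddx10KD, 33.3 ± 1.11 CPM in Ddx24KD, 36.1 ± 2.29 CPM in Ddx27KD and 34.4 ± 0.706 CPM in Ddx54KD, against 38.9 ± 2.54 CPM in EGFPKD (SD, n = 3 each). It was called in Ddx24KD (log2 -0.23 ± 0.07, edgeR adjusted p 0.0186) and not in Ddx10KD (-0.12 ± 0.07, 0.204), Ddx27KD (-0.11 ± 0.07, 0.223) or Ddx54KD (-0.18 ± 0.07, 0.0625, or 0.00747 with the block). The Ddx24KD call was lost without Ddx24KD replicate 3 or EGFPKD replicate 2 (adjusted p up to 0.0878).

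The other membrane anchor, Sdhc, had 73.1, 74.6 and 78.6 CPM in Ddx10KD, 76.8, 81.8 and 75.3 CPM in Ddx24KD, 77.7, 77.4 and 76.9 CPM in Ddx27KD and 82.4, 81.4 and 77.6 CPM in Ddx54KD, against 87.8, 91.2 and 90.0 CPM in EGFPKD. Again no knockdown value reached the controls. It fell with log2 changes of -0.25 ± 0.05, -0.20 ± 0.05, -0.21 ± 0.05 and -0.16 ± 0.05 (edgeR adjusted p 9.93e-04, 0.00516, 0.00268 and 0.0254). The last was lost without Ddx54KD replicate 3, or EGFPKD replicate 2 or 3 (adjusted p up to 0.108). The catalytic pair moved less. Sdhb fell in Ddx24KD and Ddx27KD (log2 -0.19 ± 0.06 and -0.17 ± 0.06, edgeR adjusted p 0.0392 and 0.0486), to 73.1 ± 2.96 and 73.9 ± 3.01 CPM against 83.2 ± 5.62 CPM in EGFPKD (SD, n = 3 each). Both calls were lost without replicate 1 of the same knockdown and without EGFPKD replicate 2 or 3, and also without Ddx24KD replicate 3 and Ddx27KD replicate 2 (adjusted p up to 0.146 and 0.179). That in Ddx27KD was also lost with limma-voom, upper-quartile scaling and either other filter on low counts, and that in Ddx24KD with no filter. In Ddx54KD Sdhb passed with the block alone (0.0809 without and 0.00755 with it). Sdha was not called, at log2 -0.14 to -0.06, and passed in Ddx24KD and Ddx27KD with the block (0.00297 and 0.00411).

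**Figure D3:**
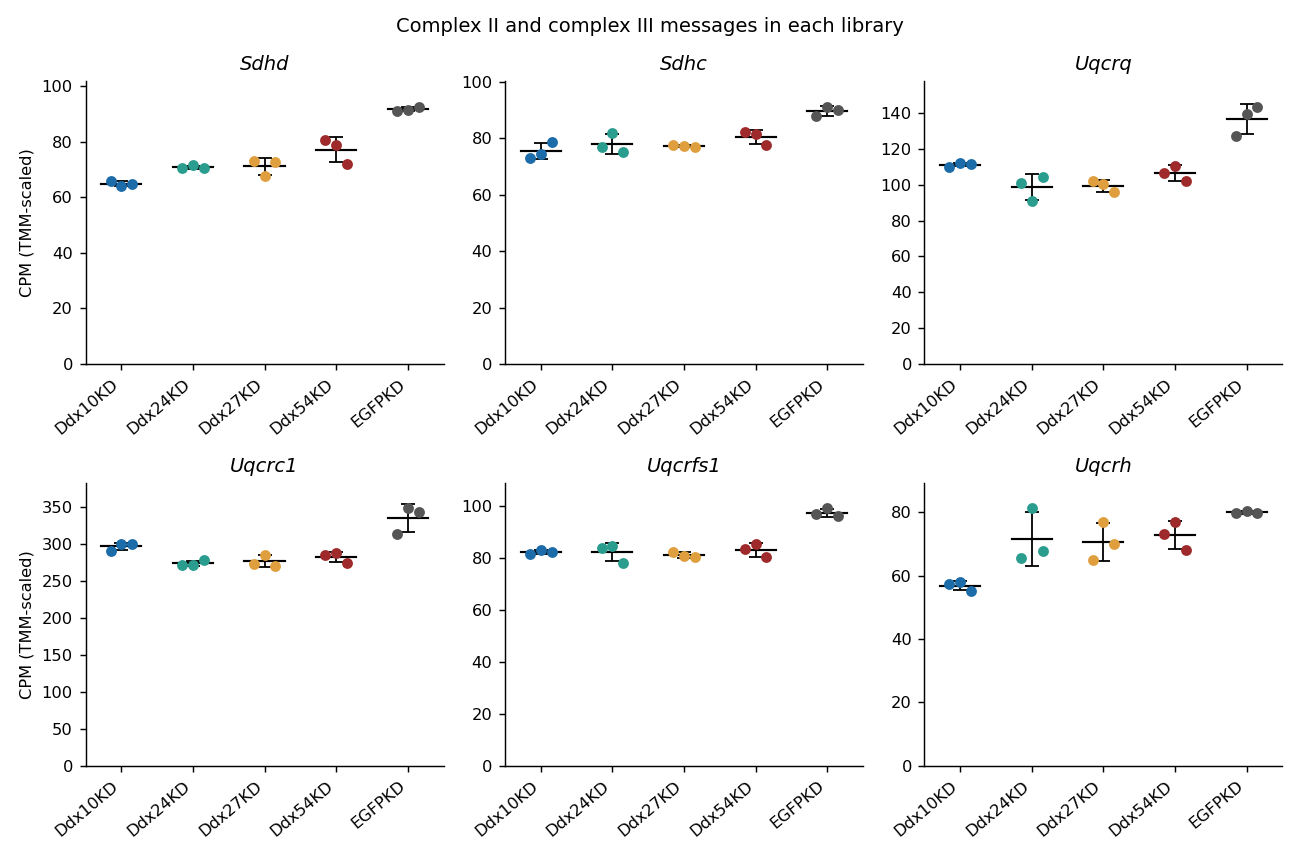
TMM-scaled CPM (vertical axes, from 0) of 2 complex II and 4 complex III messages in each library by group; points are the 3 libraries in order of replicate number, bars the mean and whiskers 1 SD. For Sdhd, Sdhc, Uqcrq, Uqcrc1 and Uqcrfs1 every knockdown point lies below every EGFPKD point, and for Uqcrh the 3 Ddx10KD points, at 55.2 to 57.9 CPM, lie below the other 12.

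Complex III moves electrons from ubiquinol to cytochrome c. Its 8 genes code for the core proteins Uqcrc1 and Uqcrc2, the Rieske iron-sulfur protein Uqcrfs1, and the small subunits Uqcrb, Uqcrh, Uqcrq, Uqcr10 and Uqcr11. Uqcrq, the ubiquinone-binding small subunit, had the furthest fall of the 78 genes in Ddx24KD, Ddx27KD and Ddx54KD. Its level was 110.1, 112 and 111 CPM in Ddx10KD, 101, 90.7 and 105 CPM in Ddx24KD, 102, 100.3 and 95.7 CPM in Ddx27KD and 107, 111 and 102 CPM in Ddx54KD, against 127, 139.6 and 143 CPM in EGFPKD. The highest knockdown value, in Ddx10KD, was below the lowest control. The log2 changes were -0.30 ± 0.06 (edgeR adjusted p 0.00112), -0.47 ± 0.06 (2.75e-05), -0.46 ± 0.06 (2.09e-05) and -0.36 ± 0.06 (3.33e-04).

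Uqcrc1 is a large core protein on the matrix side. It had 291, 299 and 300.3 CPM in Ddx10KD, 272, 272 and 278 CPM in Ddx24KD, 274, 286 and 271 CPM in Ddx27KD and 285, 287 and 274 CPM in Ddx54KD, against 314, 348 and 344 CPM in EGFPKD. The groups did not overlap, although EGFPKD replicate 1 was the nearest control to the knockdowns. It fell, with log2 changes of -0.18 ± 0.05, -0.29 ± 0.05, -0.28 ± 0.05 and -0.25 ± 0.05 (edgeR adjusted p 0.00769, 1.89e-04, 2.21e-04 and 9.19e-04). Its promoter, chr9:108936398-108936697 (forward strand), carried the NRF1 motif at 2 places, 6 and 31 bases after the start.
Uqcrc1: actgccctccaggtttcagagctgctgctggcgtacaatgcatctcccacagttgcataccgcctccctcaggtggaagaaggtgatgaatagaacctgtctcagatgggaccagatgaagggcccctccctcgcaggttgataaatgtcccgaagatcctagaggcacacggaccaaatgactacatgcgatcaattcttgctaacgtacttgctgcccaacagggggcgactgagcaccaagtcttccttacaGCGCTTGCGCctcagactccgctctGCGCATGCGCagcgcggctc

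Uqcrfs1, which carries the Rieske cluster, was the least abundant complex III message per length, at 137 TPM. It measured 81.3, 82.8 and 82.0 CPM in Ddx10KD, 83.9, 84.6 and 78.1 CPM in Ddx24KD, 82.2, 80.5 and 80.3 CPM in Ddx27KD and 83.2, 85.4 and 80.1 CPM in Ddx54KD, against 96.9, 98.9 and 95.9 CPM in EGFPKD. Every control exceeded every knockdown. The changes were of like size, at log2 -0.24 ± 0.05, -0.24 ± 0.05, -0.26 ± 0.05 and -0.23 ± 0.05 (edgeR adjusted p 7.27e-04, 9.02e-04, 3.33e-04 and 0.00169). Uqcr10, the most abundant at 569 TPM, averaged 104 ± 7.34 CPM in Ddx10KD, 97.7 ± 5.93 CPM in Ddx24KD, 100.3 ± 2.08 CPM in Ddx27KD and 101 ± 3.41 CPM in Ddx54KD, against 122 ± 11.0 CPM in EGFPKD (SD, n = 3 each). It fell with edgeR adjusted p of 0.019, 0.00261, 0.00467 and 0.00988, and its Ddx10KD call was lost without Ddx10KD replicate 1 or 2, or EGFPKD replicate 2 or 3 (adjusted p up to 0.0824). Ddx10KD and EGFPKD overlapped here, with Ddx10KD replicate 3 at 112 CPM and EGFPKD replicate 1 at 109 CPM.

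Uqcrh, the hinge protein beside cytochrome c1, had its lowest levels in Ddx10KD. It measured 57.4, 57.9 and 55.2 CPM in Ddx10KD, 65.5, 81.2 and 67.7 CPM in Ddx24KD, 65.0, 76.8 and 70.0 CPM in Ddx27KD and 73.3, 76.8 and 68.1 CPM in Ddx54KD, against 79.7, 80.5 and 79.7 CPM in EGFPKD. The Ddx10KD libraries were the lowest of the 15, and Ddx24KD replicate 2 was the highest. It fell in Ddx10KD (log2 -0.49 ± 0.08, edgeR adjusted p 1.64e-04). In Ddx24KD, Ddx27KD and Ddx54KD the log2 changes were -0.16 ± 0.08, -0.18 ± 0.08 and -0.14 ± 0.08, with adjusted p of 0.126, 0.0811 and 0.206, and 0.019, 0.00969 and 0.0485 with the block. Set against each other directly, Ddx10KD was lower than Ddx54KD (-0.36 ± 0.08, edgeR adjusted p 0.0318), a call lost without any 1 Ddx10KD library or Ddx54KD replicate 1 or 2 (adjusted p up to 0.142). Against Ddx24KD and Ddx27KD the differences were -0.33 ± 0.08 and -0.31 ± 0.08, with adjusted p of 0.0841 and 0.121, or 0.00189 and 0.00323 with the block. The remaining genes Uqcrb, Uqcr11 and Uqcrc2 were not called without the block, and their log2 changes ran from -0.17 to 0.05. With it Uqcrc2 and Uqcr11 passed in Ddx10KD, Ddx24KD and Ddx27KD, at adjusted p of 0.00901, 0.00281 and 0.00444 for Uqcrc2 and 0.0366, 0.0321 and 0.0419 for Uqcr11.

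Complex IV, cytochrome c oxidase, hands the electrons to oxygen, and it held both the largest rise among the 78 genes and sums close to control. Cox6b2 is the testis paralogue of Cox6b1, a subunit on the intermembrane side where oxidase monomers meet. It measured 16.0, 20.1 and 15.8 CPM in Ddx10KD, 23.1, 30.9 and 24.3 CPM in Ddx24KD, 23.2, 28.4 and 24.0 CPM in Ddx27KD and 24.4, 30.9 and 27.4 CPM in Ddx54KD, against 7.35, 8.59 and 7.84 CPM in EGFPKD. The Ddx10KD libraries lay between the controls and the other knockdowns, with no overlap on either side. The log2 changes over EGFPKD were 1.12 ± 0.14 (edgeR adjusted p 1.96e-05), 1.72 ± 0.14 (3.84e-07), 1.67 ± 0.14 (2.47e-07) and 1.80 ± 0.14 (3.45e-07). Over all alternatives they stayed between 1.00 and 1.19 in Ddx10KD, 1.58 and 1.79 in Ddx24KD, 1.57 and 1.73 in Ddx27KD, and 1.70 and 1.88 in Ddx54KD. Ddx10KD was lower than Ddx54KD when compared directly (-0.67 ± 0.13, adjusted p 0.0159), a call lost without Ddx10KD replicate 1 or 3 or Ddx54KD replicate 2 (adjusted p up to 0.0916). Against Ddx24KD and Ddx27KD the differences were -0.59 ± 0.13 and -0.54 ± 0.13, at adjusted p of 0.0527 and 0.109, or 1.10e-05 and 5.04e-05 with the block.

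Cox6b1, the somatic form, moved the other way by much less. It had 116, 116 and 112 CPM in Ddx10KD, 109.9, 122 and 112 CPM in Ddx24KD, 116, 121 and 108 CPM in Ddx27KD and 113, 127 and 113 CPM in Ddx54KD, against 129, 131 and 128 CPM in EGFPKD. All knockdown values were under the controls, with Ddx54KD replicate 2 the nearest. Its log2 changes were -0.17 ± 0.06, -0.17 ± 0.06, -0.17 ± 0.06 and -0.14 ± 0.06 (edgeR adjusted p 0.0346, 0.0349, 0.0343 and 0.101), the last called with the block (0.0119). The first 3 calls were lost without any 1 of the EGFPKD libraries, without replicate 1 or 3 of the same knockdown, and in Ddx10KD also without replicate 2 (adjusted p up to 0.142). In TPM, Cox6b2 made up 12.6% ± 1.55 of both paralogues together in Ddx10KD, 18.0% ± 1.45 in Ddx24KD, 17.3% ± 1.24 in Ddx27KD and 18.2% ± 0.98 in Ddx54KD, against 5.62% ± 0.342 in EGFPKD (SD, n = 3 each). Cox6b1 remained the main form in every library.

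Both promoters lie on chromosome 7, reverse strand, and are shown for contrast. That of Cox6b2, chr7:4753045-4753344, held none of the 4 motifs, and that of Cox6b1, chr7:30626065-30626364, held an ETS motif 28 bases before the start. No match says only that these letters are not in this window.
Cox6b2: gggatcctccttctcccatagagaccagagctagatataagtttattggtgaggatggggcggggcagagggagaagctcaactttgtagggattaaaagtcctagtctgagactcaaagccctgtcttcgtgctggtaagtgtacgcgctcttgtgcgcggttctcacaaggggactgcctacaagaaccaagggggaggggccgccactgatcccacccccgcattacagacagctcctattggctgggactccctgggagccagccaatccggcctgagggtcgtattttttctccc
Cox6b1: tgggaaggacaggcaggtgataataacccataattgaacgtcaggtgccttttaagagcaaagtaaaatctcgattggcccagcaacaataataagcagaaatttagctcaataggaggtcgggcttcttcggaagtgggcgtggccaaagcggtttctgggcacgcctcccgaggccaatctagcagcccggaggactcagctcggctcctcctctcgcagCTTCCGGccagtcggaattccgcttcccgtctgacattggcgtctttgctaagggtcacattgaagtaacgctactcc

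**Figure D4:**
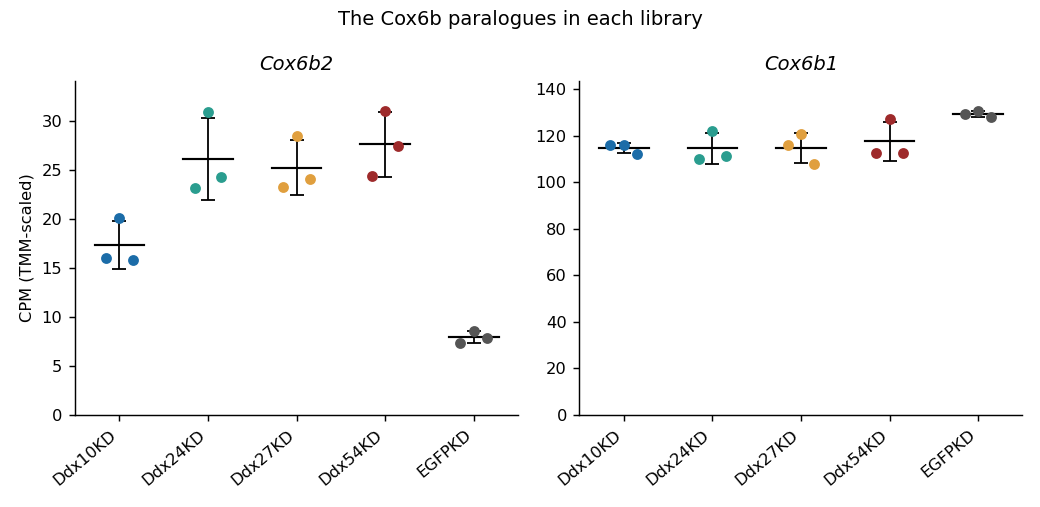
TMM-scaled CPM (vertical axes, from 0) of Cox6b2 and Cox6b1 in each library by group; points are the 3 libraries in order of replicate number, bars the mean and whiskers 1 SD. Cox6b2 lies at 7.35 to 8.59 CPM in EGFPKD libraries and at 15.8 to 30.9 CPM in knockdown libraries, while Cox6b1 lies at 108.0 to 130.5 CPM in all 15.

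The other tissue paralogues of complex IV were below the count minimum or were not called. The lung and hypoxia form Cox4i2 was below the count minimum, with 12.7 counts on average (8 to 19 per library), and made up 0.141% to 0.195% of Cox4i1 and Cox4i2 in the group means. The muscle forms Cox6a2 and Cox8b averaged 0.133 counts each, and the testis forms Cox7b2 and Cox8c 7.53 and 4.33 counts. Cox7a1, the heart and muscle form, averaged 5.13 ± 1.11 CPM in Ddx10KD, 4.42 ± 1.03 CPM in Ddx24KD, 4.41 ± 0.76 CPM in Ddx27KD and 4.89 ± 0.644 CPM in Ddx54KD, against 4.01 ± 0.0428 CPM in EGFPKD (SD, n = 3 each), and was not called. Its partner Cox7a2 carried 83.4% to 87.5% of their summed TPM in the group means. Ndufa4l2, a hypoxia-induced paralogue of Ndufa4, had the widest spread, at 6.83, 4.68 and 4.22 CPM in Ddx10KD, 11.9, 13.0 and 7.09 CPM in Ddx24KD, 12.8, 6.66 and 11.2 CPM in Ddx27KD and 7.91, 8.78 and 12.4 CPM in Ddx54KD, against 7.27, 12.0 and 4.16 CPM in EGFPKD. The groups overlapped and no comparison called it.

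Of the common oxidase subunits, Cox5a fell in Ddx10KD, Ddx24KD and Ddx27KD, to 147 ± 7.95, 148 ± 18.6 and 146 ± 3.64 CPM, against 173 ± 11.6 CPM in EGFPKD (SD, n = 3 each). Its log2 changes were -0.23 ± 0.07, -0.22 ± 0.08 and -0.24 ± 0.08 (edgeR adjusted p 0.0298, 0.0351 and 0.0194), and -0.14 ± 0.07 in Ddx54KD (0.188, or 0.0169 with the block). These calls were lost without replicate 1 or 3 of the same knockdown or EGFPKD replicate 2, and in Ddx10KD and Ddx24KD without EGFPKD replicate 3 (adjusted p up to 0.153). Ddx24KD and EGFPKD overlapped, with Ddx24KD replicate 2 at 169 CPM and EGFPKD replicate 1 at 163 CPM. Cox5a shares 145 exon bases with Gm26631 on the other strand. Cox7c, the most abundant at 915 TPM, and Cox8a, Cox7b, Cox7a2 and Ndufa4 were not called, with log2 changes between -0.16 and 0.07; of these, Cox7c in Ddx10KD and Cox7b in Ddx10KD and Ddx27KD passed with the block. Cox4i1 and Cox6a1 were higher with the block alone: for Cox4i1 the log2 changes were 0.21 ± 0.09, 0.15 ± 0.09, 0.12 ± 0.09 and 0.18 ± 0.09, with adjusted p of 0.0871, 0.236, 0.353 and 0.158 without and 1.44e-04, 0.00339, 0.0161 and 9.10e-04 with it. Cox6a1 had log2 changes of 0.11 to 0.13 and blocked adjusted p of 0.00664 to 0.0268.

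Complex V makes ATP in its F1 head, driven by a ring of c subunits in the membrane. The head subunit beta, Atp5b, was the most abundant message of the 78 per length, at 1902 TPM, followed by alpha, Atp5a1, at 1053 TPM. No comparison called Atp5b, which averaged 1747 ± 43.1 CPM in Ddx10KD, 1698 ± 54.1 CPM in Ddx24KD, 1708 ± 40.4 CPM in Ddx27KD and 1696 ± 43.0 CPM in Ddx54KD, against 1715 ± 53.5 CPM in EGFPKD (SD, n = 3 each), with log2 changes of 0.03 ± 0.04, -0.01 ± 0.04, -0.01 ± 0.04 and -0.02 ± 0.04. Atp5a1 was at -0.11 to -0.06 and passed with the block in Ddx10KD, Ddx24KD and Ddx27KD (0.00415, 0.0348 and 0.0465). The central stalk subunit gamma, Atp5c1, fell to 275 ± 7.10, 279 ± 13.6, 269 ± 5.18 and 281 ± 10.7 CPM in the 4 knockdowns, against 316 ± 15.1 CPM in EGFPKD (SD, n = 3 each). Its log2 changes were -0.20 ± 0.05, -0.18 ± 0.05, -0.23 ± 0.05 and -0.17 ± 0.05 (edgeR adjusted p 0.0055, 0.0107, 0.00162 and 0.0177), and those in Ddx24KD and Ddx54KD were lost without replicate 3 of the same knockdown or EGFPKD replicate 2 (adjusted p up to 0.0523 and 0.0818). Further falls in complex V, named after their values were seen, were those of Atp5j2, Atp5l and Atp5o. Atp5j2, a small subunit of the membrane part, fell in Ddx10KD, Ddx24KD and Ddx27KD (log2 -0.29 ± 0.06, -0.18 ± 0.06 and -0.18 ± 0.06, edgeR adjusted p 0.00224, 0.0372 and 0.0363). Atp5l, subunit g of the membrane part, fell in Ddx10KD (log2 -0.18 ± 0.06, edgeR adjusted p 0.0228). Atp5o, which joins the outer stalk to the head, fell in Ddx27KD (log2 -0.16 ± 0.06, edgeR adjusted p 0.0456). The calls of Atp5j2 in Ddx24KD and Ddx27KD and of Atp5o were lost without replicate 1 or 3 of the same knockdown or EGFPKD replicate 1 or 2, that of Atp5o also without EGFPKD replicate 3, with upper-quartile scaling and with no filter on low counts, both Ddx27KD calls with a filter of 10 CPM in 3 libraries, and that of Atp5l without Ddx10KD replicate 1 or 3 or EGFPKD replicate 2 or 3 (adjusted p up to 0.176). With the block Atp5j2 also passed in Ddx54KD (0.017) and Atp5o in Ddx10KD and Ddx24KD (0.0219 and 0.0042). Atp5o shares 204 exon bases with Donson on the same strand and 356 with Gm15976 on the other strand. Atp5l shares 133 with Gm30934 on the other strand. The least abundant, epsilon subunit Atp5e at 101 TPM, was not called (log2 -0.15 to 0.04).

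Atp5f1, subunit b of the outer stalk, had 170.0, 179.5 and 172 CPM in Ddx10KD, 169, 181 and 174 CPM in Ddx24KD, 170.0, 172 and 166 CPM in Ddx27KD and 172, 179.8 and 170.1 CPM in Ddx54KD, against 203, 207 and 205 CPM in EGFPKD. The 12 knockdown libraries reached at most 181 CPM and no control was under 203 CPM. It fell, with log2 changes of -0.24 ± 0.04, -0.23 ± 0.04, -0.28 ± 0.04 and -0.24 ± 0.04 (edgeR adjusted p 5.26e-04, 8.64e-04, 1.19e-04 and 7.84e-04), a call that every alternative kept. Atp5f1 shares 190 exon bases with Wdr77 on the other strand.

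The ring subunit c is coded by Atp5g1, Atp5g2 and Atp5g3, whose proteins differ in the import sequence and are the same once it is removed. The 3 messages did not move together. Atp5g2 had 237, 263 and 239.7 CPM in Ddx10KD, 278, 281 and 272 CPM in Ddx24KD, 277, 297 and 266 CPM in Ddx27KD and 258, 301 and 273 CPM in Ddx54KD, against 230.2, 253 and 236 CPM in EGFPKD. The Ddx10KD libraries overlapped the controls and those of the other knockdowns did not. It rose in Ddx24KD, Ddx27KD and Ddx54KD (0.21 ± 0.06, 0.22 ± 0.06 and 0.21 ± 0.06, edgeR adjusted p 0.0193, 0.0108 and 0.0209) and was at 0.04 ± 0.06 in Ddx10KD (adjusted p 0.651). These calls were lost without EGFPKD replicate 1, in Ddx24KD and Ddx54KD without EGFPKD replicate 3, and without Ddx24KD replicate 1, Ddx27KD replicate 2 or Ddx54KD replicate 2 (adjusted p up to 0.123). Compared directly, Ddx10KD differed from Ddx24KD, Ddx27KD and Ddx54KD by -0.17 ± 0.06, -0.18 ± 0.06 and -0.17 ± 0.06, which passed with the block alone (adjusted p 0.333, 0.275 and 0.209 without and 0.0126, 0.0085 and 0.00685 with it).

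Atp5g3 had 181, 177 and 189 CPM in Ddx10KD, 178, 187 and 178 CPM in Ddx24KD, 179.5, 175 and 168 CPM in Ddx27KD and 192, 182 and 161 CPM in Ddx54KD, against 219, 224 and 221 CPM in EGFPKD. It fell in each, with log2 changes of -0.28 ± 0.06, -0.29 ± 0.06, -0.34 ± 0.06 and -0.31 ± 0.06 (edgeR adjusted p 0.00152, 0.00125, 2.30e-04 and 8.63e-04), with every knockdown library under the controls. Atp5g1 had 225, 216 and 205 CPM in Ddx10KD, 218, 197 and 228 CPM in Ddx24KD, 228, 213 and 211 CPM in Ddx27KD and 232, 239 and 212 CPM in Ddx54KD, against 247, 262 and 258 CPM in EGFPKD. It too lay under the controls throughout, with log2 changes of -0.25 ± 0.06, -0.25 ± 0.06, -0.23 ± 0.06 and -0.17 ± 0.06 (edgeR adjusted p 0.00502, 0.00502, 0.00661 and 0.0523), the last called with the block (0.0157).

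In TPM the balance among the 3 shifted. Atp5g2 made up 42.6% ± 1.79 of their sum in Ddx10KD, 45.6% ± 1.04 in Ddx24KD, 46.1% ± 1.47 in Ddx27KD and 45.0% ± 2.53 in Ddx54KD, against 37.5% ± 0.702 in EGFPKD (SD, n = 3 each). Atp5g3 made up 28.2%, 26.6%, 25.7% and 25.8% in those knockdowns, against 30.9% in EGFPKD, and Atp5g1 29.3%, 27.8%, 28.3% and 29.1%, against 31.6%. Expected counts of these genes were not whole numbers in 13 or 14 of the 15 libraries, so part of their reads was assigned in fractions. With what other sequences those reads were shared was not tested, and the split among the 3 genes is uncertain to that extent. Fractional counts were not particular to the ring genes, as Uqcrq had them in 14 libraries and Sdhc, Atp5f1, Ndufa13 and Ndufs5 in 15.

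**Figure D5:**
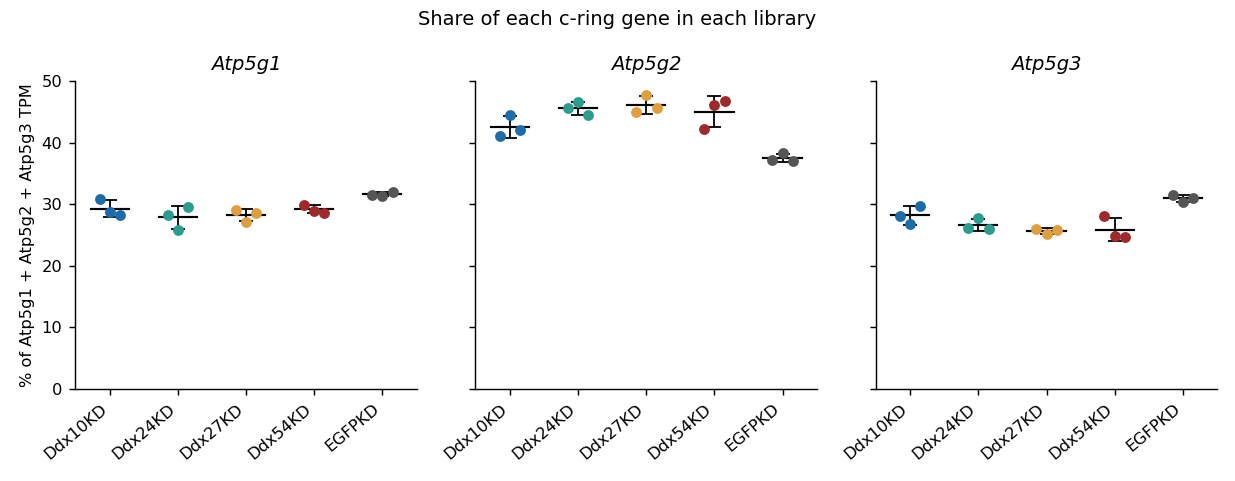
Percentage of the summed Atp5g1, Atp5g2 and Atp5g3 TPM (vertical axis, from 0) that each gene held in each library by group; points are the 3 libraries in order of replicate number, bars the mean and whiskers 1 SD. The Atp5g2 share is higher and the Atp5g1 and Atp5g3 shares are lower in every knockdown library than in every EGFPKD library.

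The promoters of the 3 ring genes are shown because the messages moved apart. All lie on the reverse strand, Atp5g1 at chr11:96075582-96075881, Atp5g2 at chr15:102670998-102671297 and Atp5g3 at chr2:73911277-73911576. The window of Atp5g1 held none of the 4 motifs, that of Atp5g2 an NRF1 motif 42 bases before the start, and that of Atp5g3 an ESRRA site 52 bases before and an NRF1 motif 13 bases after it.
Atp5g1: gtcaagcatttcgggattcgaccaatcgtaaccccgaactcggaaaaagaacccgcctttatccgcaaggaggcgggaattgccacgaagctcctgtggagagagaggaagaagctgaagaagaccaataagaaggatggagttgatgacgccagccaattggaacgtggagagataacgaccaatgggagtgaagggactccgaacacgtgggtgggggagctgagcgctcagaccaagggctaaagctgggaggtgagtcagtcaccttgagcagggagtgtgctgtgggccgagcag
Atp5g2: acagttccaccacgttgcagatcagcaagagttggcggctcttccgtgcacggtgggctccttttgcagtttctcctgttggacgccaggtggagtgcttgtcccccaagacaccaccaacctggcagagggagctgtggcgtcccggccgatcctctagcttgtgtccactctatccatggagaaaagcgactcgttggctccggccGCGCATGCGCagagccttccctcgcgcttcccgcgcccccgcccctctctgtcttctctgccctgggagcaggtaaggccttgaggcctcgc
Atp5g3: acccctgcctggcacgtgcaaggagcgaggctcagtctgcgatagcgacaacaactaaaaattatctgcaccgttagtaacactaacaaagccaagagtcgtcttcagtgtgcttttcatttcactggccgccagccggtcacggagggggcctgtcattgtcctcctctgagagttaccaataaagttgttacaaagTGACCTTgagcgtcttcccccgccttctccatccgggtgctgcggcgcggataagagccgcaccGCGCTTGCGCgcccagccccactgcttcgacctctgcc

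Atp5sl, which despite its symbol acts in complex I assembly, rose in Ddx24KD, Ddx27KD and Ddx54KD, to 52.3 ± 3.22, 52.7 ± 2.49 and 50.4 ± 0.876 CPM, against 44.5 ± 1.27 CPM in EGFPKD (SD, n = 3 each). The log2 changes were 0.23 ± 0.06, 0.25 ± 0.06 and 0.18 ± 0.06 (edgeR adjusted p 0.00646, 0.00363 and 0.0306), and 0.07 ± 0.06 in Ddx10KD (0.394). The Ddx54KD call was lost without any 1 of its own libraries or EGFPKD replicate 2 or 3 (adjusted p up to 0.10).

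Between knockdowns few subunit messages differed. Ddx10KD against Ddx54KD called 3 of the 78 genes, all lower in Ddx10KD, where 0.739% of all genes were lower and 1.43% were called in either direction. These were Cox6b2 and Uqcrh, given above, and Sdhd (-0.25 ± 0.05, edgeR adjusted p 0.0227). The count was 0 without Ddx10KD replicate 1 or 3 or Ddx54KD replicate 2, and 1 without Ddx10KD replicate 2 or Ddx54KD replicate 1. The edgeR test called 0 of the 78 genes in the other 5 pairs, where 0.412% of all genes differed between Ddx10KD and Ddx24KD, 0.223% between Ddx10KD and Ddx27KD, 0.0209% between Ddx24KD and Ddx27KD, 0.0558% between Ddx24KD and Ddx54KD, and 0.014% between Ddx27KD and Ddx54KD. At an unadjusted p under 0.05 there were 13 in Ddx10KD against Ddx24KD, 11 in Ddx10KD against Ddx27KD, 0 in Ddx24KD against Ddx27KD, 1 in Ddx24KD against Ddx54KD and 3 in Ddx27KD against Ddx54KD, where 10.9%, 11.4%, 4.14%, 6.47% and 7.75% of all genes were under it. DESeq2 called 2, 2, 0, 0 and 0 genes in these pairs and limma-voom called 0 in each, and for these methods the shares of all genes were not taken. With the block 6, 7 and 8 genes were called in Ddx10KD against Ddx24KD, Ddx27KD and Ddx54KD (5.41%, 5.34% and 10.6% of all genes), and 0 in Ddx24KD against Ddx27KD, Ddx24KD against Ddx54KD and Ddx27KD against Ddx54KD (0.0558%, 1.74% and 2.62%).

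The authors' deposited tables, from EBSeq, give a posterior probability of differential expression per gene. At 0.95 or more they hold 21 of the 78 genes in Ddx10KD, 17 in Ddx24KD, 21 in Ddx27KD and 13 in Ddx54KD, where 17.1%, 12.4%, 18.3% and 13.1% of all their genes reach it. Those shares are over 18662 to 18744 genes per comparison, more than were tested here. Of the subunit genes 4, 3, 4 and 1 were higher and 17, 14, 17 and 12 lower. The shares of all genes cover both directions together, so these counts by direction have no background beside them. In Ddx54KD the higher gene was Cox6b2. Ndufa13, Ndufa11, Ndufb9, Atp5g2 and Atp5sl, called higher there by edgeR, had probabilities of 0.80, 0.72, 0.63, 0.38 and 2.1e-09. Some falls called by edgeR were under 0.95 too, in Ddx54KD those of Uqcr10 (0.92) and Ndufv2 (1.3e-05). In Ddx24KD Uqcr10, Atp5g1, Cox5a and Ndufs7 were at 0.096, 0.062, 0.062 and 2.4e-09, and in Ddx27KD Ndufs7 was at 0.035. Other falls reached 0.95, those of Sdhd and Uqcrq in all 4 comparisons. The authors' deposited table puts Cox6b2 at a fold change of 2.17 in Ddx10KD, 2.96 in Ddx24KD, 3.17 in Ddx27KD and 3.46 in Ddx54KD over EGFPKD. Across the 14335 tested genes the log2 fold changes of the authors' deposited table correlated with those fitted here at 0.967 in Ddx24KD and at 0.9987, 0.9991 and 0.9989 in Ddx10KD, Ddx27KD and Ddx54KD, so the Ddx24KD table follows the deposited counts less closely. Its Cox6b2 value is below that of Ddx27KD, whereas the fitted change in Ddx24KD (1.72) is above that in Ddx27KD (1.67) by less than its standard error.

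Genes that work beside the subunits were counted from lists by function, and their counts can be read against the shares of all genes given with the first counts. Of 20 genes of the tricarboxylic acid cycle and pyruvate dehydrogenase, 11, 10, 11 and 7 fell in Ddx10KD, Ddx24KD, Ddx27KD and Ddx54KD and 1 rose in each, with medians of -0.19, -0.16, -0.20 and -0.15. The gene that rose was Pcx, pyruvate carboxylase, at 78.8 ± 4.42, 82.9 ± 8.26, 88.3 ± 2.52 and 78.4 ± 5.74 CPM against 45.3 ± 2.97 CPM in EGFPKD (SD, n = 3 each), log2 0.80 ± 0.08, 0.87 ± 0.08, 0.96 ± 0.08 and 0.79 ± 0.08 (edgeR adjusted p 1.89e-06, 8.84e-07, 1.81e-07 and 3.27e-06). Pdha1, of the pyruvate dehydrogenase that shares its substrate, fell, with log2 changes of -0.47 ± 0.05, -0.28 ± 0.05, -0.33 ± 0.05 and -0.16 ± 0.05 (edgeR adjusted p 7.84e-06, 7.74e-04, 1.60e-04 and 0.0349), the last lost without any 1 Ddx54KD library or EGFPKD replicate 2 or 3 (up to 0.102). Citrate synthase, Cs, and the isocitrate dehydrogenase subunit Idh3a fell too, with log2 changes of -0.32 to -0.20 (edgeR adjusted p at most 0.00265) and -0.39 to -0.32 (at most 1.85e-04) over the 4 comparisons.

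Among 12 respiratory genes outside the name rule, Cox7a2l, a factor of supercomplex assembly, fell in Ddx10KD. It averaged 58.6 ± 1.53 CPM there, 91.8 ± 12.1, 92.6 ± 2.08 and 92.3 ± 3.88 CPM in Ddx24KD, Ddx27KD and Ddx54KD, against 87.3 ± 3.75 CPM in EGFPKD (SD, n = 3 each). The log2 changes were -0.58 ± 0.07 (edgeR adjusted p 3.12e-05) in Ddx10KD and 0.07 ± 0.07, 0.08 ± 0.07 and 0.08 ± 0.07 in the others (adjusted p 0.498, 0.407 and 0.46). In direct comparisons Ddx10KD was lower than Ddx24KD, Ddx27KD and Ddx54KD, with log2 differences of -0.65 ± 0.07, -0.66 ± 0.07 and -0.66 ± 0.07 (edgeR adjusted p 2.88e-04, 3.63e-04 and 2.79e-04). Cyc1, the cytochrome c1 of complex III, fell, with log2 changes of -0.14 ± 0.05, -0.23 ± 0.05, -0.24 ± 0.05 and -0.23 ± 0.05 (edgeR adjusted p 0.0326, 0.00247, 0.00127 and 0.00294). The first was lost without Ddx10KD replicate 2 or 3, any 1 EGFPKD library or the filter on low counts (adjusted p up to 0.0966). Gpd2 and Dhodh, dehydrogenases that feed electrons to ubiquinone, fell in all 4, with log2 changes of -0.66 to -0.50 (edgeR adjusted p at most 1.84e-04) and -0.42 to -0.25 (at most 0.0139), where Dhodh in Ddx54KD was lost without Ddx54KD replicate 2 or 3 or EGFPKD replicate 1 (up to 0.0701). The whole list had 5, 4, 5 and 4 genes lower and 0, 0, 1 and 1 higher, with medians of -0.10, -0.09, -0.11 and -0.04.

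Regulators of respiratory genes split. Of 17 tested, 5, 4, 5 and 5 fell and 3, 2, 3 and 0 rose in Ddx10KD, Ddx24KD, Ddx27KD and Ddx54KD, with medians of -0.0027, 0.03, 0.04 and -0.03. Ppargc1b, a coactivator of mitochondrial genes, averaged 5.39 ± 0.938, 5.95 ± 0.563, 5.38 ± 0.75 and 6.43 ± 0.303 CPM against 10.8 ± 0.599 CPM in EGFPKD (SD, n = 3 each) and fell, with log2 changes of -1.0 ± 0.13, -0.86 ± 0.13, -1.0 ± 0.13 and -0.75 ± 0.13 (edgeR adjusted p 2.87e-05, 1.24e-04, 2.16e-05 and 4.66e-04). Myc, a driver of growth genes, and Tfeb, a regulator of lysosome genes, fell in all 4, with log2 changes of -0.67 to -0.31 (edgeR adjusted p at most 0.00456) and -0.60 to -0.40 (at most 0.00309). Mycn, a relative of Myc, rose in Ddx10KD, Ddx24KD and Ddx27KD, with log2 changes of 0.42 ± 0.11, 0.49 ± 0.11 and 0.45 ± 0.11 (edgeR adjusted p 0.00598, 0.00275 and 0.00343), and in Ddx54KD its 0.12 ± 0.11 passed with the block alone (0.435 without and 0.00771 with it).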

How the data were processed

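The 15 libraries were of polyadenylated RNA from E14 mouse embryonic stem cells, 3 in each of 5 groups. The authors deposited expected counts, estimated reads per gene, and TPM values, for which the submitters' processing notes name RSEM and mm10. The aligner, annotation release and strand setting were stated nowhere in the material used here. The authors also deposited EBSeq tables with a posterior probability as a score and a fold ratio per gene, per the file headers.

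Expected counts were rounded, filtered with filterByExpr (14335 of 23845 genes, 99.97% of counts), scaled by TMM and tested with edgeR 4.0.16 in R 4.3.3 (quasi-likelihood, all 5 groups in 1 fit, no block), with Benjamini-Hochberg adjustment over all tested genes and a threshold of 0.05. CPM values are TMM-scaled, and an error after a log2 change is the standard error of that fit. Alternatives were RLE and upper-quartile scaling, DESeq2 1.42.0, limma-voom (limma 3.58.1), other filters, 2-group fits, leaving out each library, and the replicate number as a block. The numbers pair the libraries: deviations from group means correlated at 0.106 to 0.335 in all 30 same-number pairs across groups, and each of the 15 libraries was most like its own number. What a number stands for is not given in the sources used here, so p-values measure the spread between these cultures as labelled. Simulated data held log2 changes of 0.5 in 100 genes and of 1 in 100 others, out of 14335. The test recovered 71% to 80% of the smaller changes and 100% of the larger. It made 5 to 15 false calls per comparison. In the data far more genes were called, 11.2% to 16.1% of all genes lower and 13.1% to 17.3% higher. The adjusted threshold depends on that number, so neither the recovery nor the false calls carry over to the data. Most subunit calls were smaller than 0.5, and neither such changes nor an effect of the replicate number were simulated.

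Subunits named in the text were, per complex, the 4 with the smallest p over the 5 groups and those with the highest and lowest TPM, per comparison the 4 largest called changes each way, called pairs, and tissue paralogues; of each other list, the 4 genes with the smallest p. Others are said to be chosen after their values were seen. The members and lists were chosen with earlier results of these data known. Promoters were read from RefSeq windows of GRCm38.p6 and exon overlaps from GENCODE M21. Depth differed little between libraries. Replicates differed by more than counting error (mean chi-square per gene of 5.81 to 20.7 within groups), and the fits estimate that spread.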

Additional observations from a re-analysis of the deposited data

How the results depend on the processing

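No call of a named gene in the 4 comparisons with EGFPKD reversed under any alternative: of 91 such results for subunit genes 48 passed in each, and the other 43 missed the threshold in at least 1, 177 of 1274 settings in all. Of 116 for other genes, the targets included, 96 passed in each. Fitting only the 2 compared groups ended the subunit calls of Ndufs7, Cox5a, Cox6b1, Ndufa8 and Sdhb in Ddx24KD, Sdhb, Ndufa5 and Ndufv2 in Ddx27KD, Ndufb10, Ndufv2 and Sdhc in Ddx54KD and Ndufb6 in Ddx10KD. With the replicate block the genes called higher were 9 in Ddx10KD, 8 in Ddx24KD, 8 in Ddx27KD and 10 in Ddx54KD, those called lower in Ddx54KD 21, and those of the 5-group test 40. Beside the calls given with their genes the block changed others of unnamed members, which enter only these counts. Between knockdowns, Ddx10KD against Ddx24KD called 1 gene with RLE scaling, 1 with no filter, 2 with DESeq2 and 6 with the block. Ddx10KD against Ddx27KD called 2 with DESeq2 and 7 with the block, and Ddx10KD against Ddx54KD called 8 with the block. For the pairs, shares of all genes under an alternative are given for the block alone. Leaving out 1 library gave 2 to 4, 2 to 5, 2 to 6 and 1 to 5 genes higher and 14 to 19, 10 to 24, 13 to 22 and 7 to 14 lower in Ddx10KD, Ddx24KD, Ddx27KD and Ddx54KD, and 13 to 26 over the 5 groups. It gave 0 to 1 in Ddx10KD against Ddx24KD, 0 to 3 in Ddx10KD against Ddx54KD and 0 in the other 4 pairs. Against EGFPKD 12.1% to 14.9%, 10.9% to 15.3%, 14.2% to 15.3% and 8.85% to 13.2% of all genes then rose, in the same order of knockdowns. Shares that fell were 9.96% to 12.6%, 8.9% to 14.4%, 12.6% to 13.8% and 6.57% to 10.7%. The causes were not tested. Counting error weighs most on the scarcest subunit, Ndufs5, at 56.0 to 91.2 expected counts per library; with 3 libraries a group, changes near 10% were called for some subunits and not for others of like size. Genes with overlapping exons or fractional expected counts are the less certain ones.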

Other observations

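Mitochondrial genes that are no subunits of the chain showed further groups with more members lower than higher. Of all tested genes 14.5%, 13.1%, 16.1% and 11.2% fell in Ddx10KD, Ddx24KD, Ddx27KD and Ddx54KD. In the same order 16.5%, 15%, 17.3% and 13.1% rose. Of 17 genes of mitochondrial stress and mass, 9, 9, 10 and 8 fell and 2, 0, 1 and 1 rose in Ddx10KD, Ddx24KD, Ddx27KD and Ddx54KD, with median log2 changes of -0.22, -0.17, -0.27 and -0.19. Vdac1, the main channel of the outer membrane, had log2 changes of -0.40 to -0.23 over the 4 comparisons (edgeR adjusted p at most 7.52e-04). The prohibitins Phb and Phb2, which form rings in the inner membrane, had -0.27 to -0.22 (at most 0.00481) and -0.29 to -0.24 (at most 0.00631). Atf5, a transcription factor of the mitochondrial stress response, fell too, to 17.6 ± 1.82, 14.4 ± 0.802, 16.6 ± 1.46 and 15.6 ± 1.45 CPM in those knockdowns against 21.7 ± 3.32 CPM in EGFPKD (SD, n = 3 each), with log2 changes of -0.31 ± 0.11, -0.59 ± 0.11, -0.39 ± 0.11 and -0.48 ± 0.11 (edgeR adjusted p 0.0454, 0.00106, 0.0123 and 0.00513). Of 26 genes of protein import, 11, 9, 12 and 9 fell and 2, 1, 2 and 2 rose, with medians of -0.15, -0.13, -0.13 and -0.12. Among them Tomm22, Tomm5, Timm10 and Grpel1 had log2 changes of -0.32 to -0.27, -0.38 to -0.23, -0.35 to -0.27 and -0.33 to -0.22, with edgeR adjusted p of at most 0.00357, 0.0277, 0.0128 and 0.0109. Calls that 1 library decided were those of Atf5 in Ddx10KD (Ddx10KD replicate 1 or 3, EGFPKD replicate 2 or 3; adjusted p up to 0.238) and in Ddx27KD (Ddx27KD replicate 3, EGFPKD replicate 2), of Timm10 in Ddx10KD (replicate 3 of either group), and in Ddx54KD of Tomm5 (Ddx54KD replicate 3, EGFPKD replicate 1 or 2) and Grpel1 (Ddx54KD replicate 3).

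Assembly factors were divided. Of 16 for complex I, 5, 4, 8 and 2 fell and 1, 3, 2 and 1 rose in Ddx10KD, Ddx24KD, Ddx27KD and Ddx54KD. One of the 16, Atp5sl, is also among the 78 genes and is among those that rose in Ddx24KD, Ddx27KD and Ddx54KD. Ndufaf1 had log2 changes of -0.49 to -0.41 (edgeR adjusted p at most 6.98e-04) and Ndufaf7 of -0.33 to -0.09 (at most 0.364), whereas Timmdc1 had 0.24 to 0.51 (at most 0.0577). Of 30 for complexes II to V, 4, 4, 4 and 2 fell and 3, 1, 2 and 2 rose. These falls were near or below the shares of all genes, and the rises were below them. Here Cox11, a copper chaperone of cytochrome c oxidase, had log2 changes of -0.32 to -0.19, Surf1 of 0.10 to 0.38, Coa5 of 0.14 to 0.24 and Uqcc2 of -0.29 to -0.18 (edgeR adjusted p at most 0.0441, 0.38, 0.0546 and 0.0984). Of 23 genes that copy, transcribe or process mitochondrial DNA and its RNA, 2, 5, 5 and 1 fell and 1, 0, 2 and 1 rose. These falls were below the share of all genes in Ddx10KD and Ddx54KD, and above it in Ddx24KD and Ddx27KD. The rises were below it in each. Fastkd5, which acts on mitochondrial RNA processing, had log2 changes of -0.51 to -0.46 (edgeR adjusted p at most 0.00174), and Top1mt, Mterf4 and Ssbp1 had 0.08 to 0.38, -0.27 to -0.15 and -0.33 to -0.21 (at most 0.575, 0.128 and 0.0532). Leaving out 1 library ended the calls of Timmdc1 in Ddx24KD (Ddx24KD replicate 3, EGFPKD replicate 1), Cox11 in Ddx54KD (Ddx54KD replicate 2 or 3, EGFPKD replicate 1 or 2), Coa5 in Ddx24KD (Ddx24KD replicate 1 or 3, EGFPKD replicate 1 or 2) and in Ddx27KD (Ddx27KD replicate 1, EGFPKD replicate 2), and Uqcc2 in Ddx10KD (Ddx10KD replicate 2 or 3, EGFPKD replicate 2) and in Ddx24KD (EGFPKD replicate 2), with adjusted p up to 0.168. It did so too for Top1mt in Ddx27KD (any 1 library of either group), Mterf4 in Ddx10KD (EGFPKD replicate 1) and in Ddx27KD (Ddx27KD replicate 3, EGFPKD replicate 1 or 3), and Ssbp1 in Ddx24KD (Ddx24KD replicate 3, EGFPKD replicate 1 or 2), with adjusted p up to 0.133.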
